A study of Drosophila melanogaster with 2 samples.

Results

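The nuclear genes for the subunits of oxidative phosphorylation were examined for promoter binding of CG3032-eGFP, the product of Drosophila melanogaster CG3032 carrying green fluorescent protein at its C-terminus. The members were the protein-coding genes of the Ensembl annotation whose symbol begins with ND-, UQCR-, COX4 to COX8 or ATPsyn, or is SdhA, SdhB, SdhC, SdhD, Cyt-c1 or RFeSP. This rule found 86 genes of 13968, with 40 in complex I, 4 in complex II, 11 in complex III, 16 in complex IV and 15 in complex V. It uses symbols alone, so subunits with names of their own are outside it and are given separately.

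Chromatin came from whole prepupae of 24 hours, males and females pooled, of a transgenic line that carries the fusion. The labels do not say which promoter drives it. It was precipitated with an antibody to GFP and sequenced (ChIP-seq). The 2 biological replicates, numbered 2 and 3 in the labels, form 1 group, so the design holds no contrast between conditions. The data are peak lists: each peak has a summit and a signal value on a scale of the authors' own. In whole animals, binding in fewer cells and weaker binding in each cell cannot be told apart.

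Oxidative phosphorylation passes electrons from NADH (through complex I) and succinate (through complex II) to ubiquinone, on to complex III, by cytochrome c to complex IV, and to oxygen. Complexes I, III and IV pump protons out of the mitochondrial matrix, and complex V, the ATP synthase, lets them back in to make ATP. Except for complex II, each complex joins a few proteins encoded in mitochondrial DNA with many encoded in the nucleus. In Drosophila many nuclear subunit genes also have duplicated copies, and many of these are expressed mainly in the testis. Copies of this kind carry a symbol that ends in L, or in L and a digit. They are called like-copies here and number 21 of the 86 members.

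Most subunit genes that are no like-copies carried a CG3032-eGFP summit at their promoter, and many of these summits were weak. A promoter summit is a summit within 500 bp of a transcription start site (TSS) of the gene. The IDR list, which holds the 8170 peaks that the authors kept for their repeatability between replicates, had a promoter summit for 27 of the 86 members (31.4%, 95% exact interval over genes 21.8 to 42.3). The share among all protein-coding genes was 26.9%, which lies within that interval. The whole-series list, with 30000 peaks called on both replicates together, had one for 62 members (72.1%, 61.4 to 81.2), against 49.1% of all protein-coding genes. Of the 65 members that are no like-copies, 27 had an IDR summit (41.5%, 29.4 to 54.4) and 58 a whole-series summit (89.2%, 79.1 to 95.6). Among these 65 genes, the strongest promoter summit ranked 8171 to 16340 of the whole-series list for 24 genes (36.9%), against 15.0% of all protein-coding genes. It ranked 1 to 4085 for 12 genes (18.5%), against 14.8%, and 4086 to 8170 for 15 (23.1%), against 12.1%. For 7 genes (10.8%, against 7.18%) it ranked 16341 to 30000. In these comparisons like-copies are left out of the members, while no such copies were left out of all protein-coding genes. Over all 86 members, the 12 genes of rank 1 to 4085 were 14.0%.

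Where members had an IDR summit, its signal was below that of the typical promoter. The median was 241 over the 27 members, against 336 over the 3763 protein-coding genes with an IDR promoter summit. Only 5 of the 27 had a summit of rank 2042 or better, and all 5 were complex I genes, namely ND-ASHI, ND-MWFE, ND-42, ND-SGDH and ND-51. Of all genes with an IDR promoter summit, 29.2% reached that rank.

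**Figure D1:**
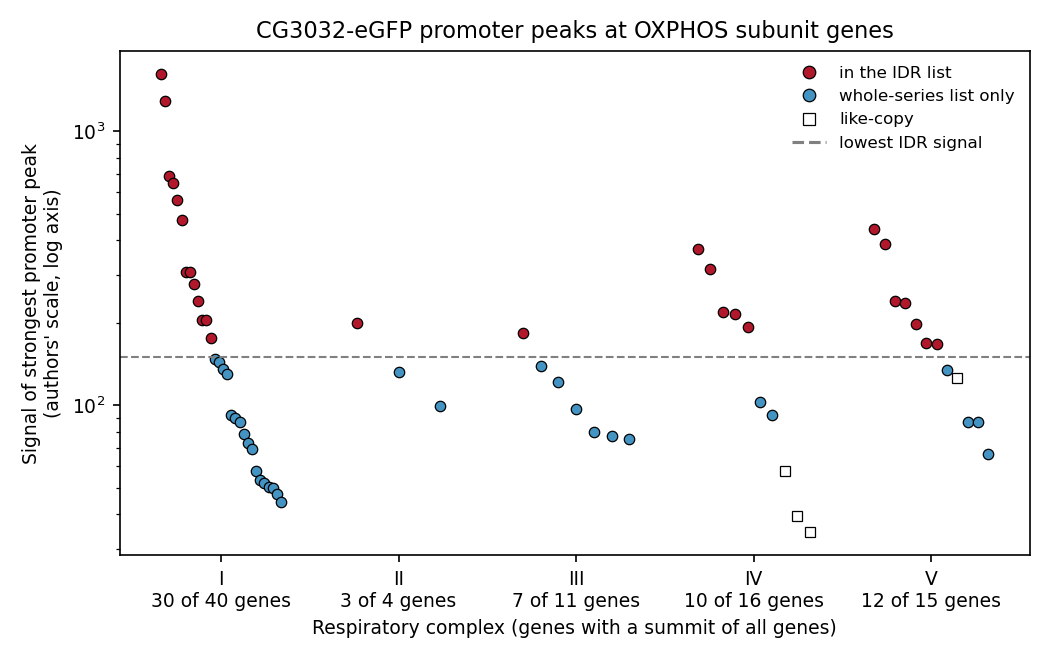
Signal of the strongest promoter peak in the whole-series list (log axis, authors' scale) for each member with one, by complex, in falling order from left to right. Filled red points are in the IDR list, blue points in the whole-series list only, open squares are like-copies, and the dashed line is the lowest IDR signal (150.5). The highest points, at 1623 and 1294, belong to complex I, and no like-copy lies above the line.

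The DNA at these summits had a higher median A+T content than its flanks. The 61 bases around the strongest summit of 7 members, from complexes I, IV and V, are printed below on the strand of the member, from the RefSeq copy of Release 6 (dm6 coordinates), to show this composition and the element that some of them hold. None overlaps an annotated exon. Capitals mark words of the NRG element, which has been described at nuclear genes of oxidative phosphorylation in Drosophila.
ND-ASHI, chrX:6679342-6679402, minus strand: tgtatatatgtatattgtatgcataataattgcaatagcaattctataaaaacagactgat
ND-42, chr3R:22027536-22027596, plus strand: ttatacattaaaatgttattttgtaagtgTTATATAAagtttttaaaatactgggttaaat
ND-SGDH, chr3L:12138654-12138714, minus strand: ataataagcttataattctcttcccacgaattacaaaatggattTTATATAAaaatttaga
ND-51, chr2L:6062816-6062876, minus strand: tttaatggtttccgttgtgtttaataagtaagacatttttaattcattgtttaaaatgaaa
ND-MNLL, chrX:7893849-7893909, minus strand: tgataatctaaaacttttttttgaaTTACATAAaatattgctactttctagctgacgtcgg
COX7B, chr3L:17425306-17425366, plus strand: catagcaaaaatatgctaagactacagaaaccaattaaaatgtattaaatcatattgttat
ATPsynCF6, chr3R:23356212-23356272, minus strand: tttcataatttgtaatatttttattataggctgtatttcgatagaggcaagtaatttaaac

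The A+T content of these 7 windows, which are among the richer ones, ran from 72.1% in ND-MNLL to 83.6% in ND-42, while that of ND-20 was 52.5% and that of COX5B 62.3%. Over windows of 100 bp to either side of the strongest IDR summit of all 27 members it ran from 49.8% to 79.1% with a median of 66.7%, close to the 66.2% of the 2696 such summits at all promoters. Windows centred 500 bp away had a median of 47.5% at members and 53.7% at all promoters.

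Complex I, which takes electrons from NADH, held the strongest summits of the members. An IDR summit was present at 13 of its 40 genes (32.5%, 18.6 to 49.1, against 26.9% of all protein-coding genes). A whole-series summit was present at 30 (75.0%, against 49.1%). Most of its 7 nuclear core subunits carry the flavin or iron-sulfur clusters or line the ubiquinone site. These 7 had an IDR summit at 6 (85.7%, 42.1 to 99.6). The other 27 complex I genes that are no like-copies had one at 7 (25.9%, 11.1 to 46.3). The intervals overlap, and the difference was not tested.

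Among the core genes, the strongest peak was at ND-51, the subunit that binds flavin and NADH. Its IDR summit at 2L:6062846 lay −89 bp from the TSS, where a minus sign means upstream, and had a signal of 563. The signal was 212 in the list of replicate 2 and 357 in that of replicate 3. ND-24, its partner in the NADH-oxidising module, had a signal of 306 at X:17632227, with 103 in replicate 2 and 196 in replicate 3. Signals are not comparable between the replicate lists, so ranks are set side by side. ND-51 ranked 1740 in replicate 2 and 2205 in replicate 3 while ND-24 ranked 4162 and 4324. Both were thus placed alike by the replicates.

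The core subunits near the ubiquinone site covered a similar range. ND-23 had a signal of 473 at 3R:15837246, ranking 1857 in replicate 2 and 3210 in replicate 3. ND-20 had 241 at X:15986897, ranking 4917 and 5491. ND-30 had the lowest signal of the core genes with an IDR summit, with 176 at 3L:3159839 and ranks of 7871 and 7102. ND-49, on chromosome 4 at position 571032, was placed differently by the replicates, with rank 2076 in replicate 2 (signal 185) and 9965 in replicate 3 (signal 85.4). ND-75, the large iron-sulfur subunit, was the core gene without an IDR summit: replicate 3 alone had a weak one, 3 bp from its TSS (signal 28.3, rank 23542). An IDR summit with a signal of 747 lay outside the window of 500 bp, at X:8252421, −734 bp from the TSS of ND-75 and 249 bp from that of its neighbour CG1632.

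The accessory subunits of complex I, which surround the core, held both the strongest and the weakest member peaks of the complex. The strongest was at ND-ASHI, at X:6679372, with a signal of 1623 (rank 309), ranking 508 in replicate 2 and 263 in replicate 3. This summit lay −254 bp from a TSS of ND-ASHI and −268 bp from one of Fum1, the fumarase gene of the citric acid cycle, so it lay in the window of both genes. ND-ASHI had another IDR summit, at X:6678275 and −15 bp from another of its start sites, with a signal of 161. The summit of ND-MWFE followed, at 2R:13158488 with a signal of 1294, ranking 216 in replicate 2 and 881 in replicate 3. It lay nearer to the TSS of TppII, a peptidase gene (43 bp), than to that of ND-MWFE (178 bp).

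ND-42 had a signal of 687 at 3R:22027566, ranking 1256 in replicate 2 and 1813 in replicate 3. Its summit was 86 bp from the TSS of Cchl, the gene for cytochrome c heme lyase, and 143 bp from that of ND-42. ND-SGDH had 648 at 3L:12138684, with ranks of 1141 and 2054. The remaining IDR members of the complex were weaker, at 306 for ND-MNLL (X:7893879), 205 for ND-B17.2 (2L:2580183) and 205 for ND-B22 (2L:13371061). In replicates 2 and 3, ND-MNLL ranked 4496 and 3872, ND-B17.2 ranked 7389 and 6284, and ND-B22 ranked 6551 and 6341, so the replicates placed all 3 alike. ND-MNLL shares its start site with CG45089, so their peaks cannot be told apart.

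A further 17 complex I genes had a whole-series summit only, with a signal below 150.5. The strongest were ND-B18 (147), ND-AGGG (144), ND-B17 (136) and ND-B8 (131). The replicates placed some of these unequally: ND-AGGG ranked 3379 in replicate 2 and 20752 in replicate 3, and ND-B18 ranked 14560 and 7376. The lowest signal was 44.5. The other 13 genes with a whole-series summit only were ND-13A, ND-13B, ND-18, ND-39, ND-ACP, ND-B12, ND-B14, ND-B14.5A, ND-B14.5B, ND-B14.7, ND-B15, ND-B16.6 and ND-PDSW. ND-15, ND-19, ND-20L and ND-75 had a promoter summit in 1 replicate list only. ND-MLRQ was the only member that is no like-copy and had no promoter summit in any of the 4 lists.

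Complexes II and III were marked mostly by weak summits. Complex II oxidises succinate and is also an enzyme of the citric acid cycle. SdhC, one of its membrane anchors, had an IDR summit at 3R:11209977 with a signal of 199, ranking 6291 in replicate 2 and 5727 in replicate 3. SdhD, the other anchor, had a signal of 132 and SdhA, the flavoprotein, 99.0 in the whole-series list, and SdhB, the iron-sulfur protein, had a summit in replicate 2 only (signal 30.5). In complex III, the cytochrome bc1 complex, 1 of 11 genes had an IDR summit (9.09%, 0.230 to 41.3, against 26.9% of all protein-coding genes). This was UQCR-C2, a core protein gene, with a signal of 183 at 3L:16584247 and ranks of 10151 and 6021.

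Another 6 complex III genes had a whole-series summit. The strongest were UQCR-14 (139), Cyt-c1 (122), which encodes cytochrome c1, UQCR-6.4 (97.2) and UQCR-C1 (79.8). The Cyt-c1 summit lay nearer to the TSS of Klp64D (332 bp) than to that of Cyt-c1 (487 bp). Another summit of Cyt-c1, at −65 bp, had a signal of 50.9. The others were the Rieske iron-sulfur protein gene RFeSP and UQCR-Q. UQCR-11 had a summit in replicate 2 alone (signal 133, rank 3114, −116 bp). No summit lay within 500 bp of its TSS in the whole-series or the replicate 3 list.

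Complex IV, cytochrome c oxidase, had IDR summits at 5 of 16 genes (31.2%, 11.0 to 58.7, against 26.9% of all protein-coding genes), all among the 8 that are no like-copies (62.5%, 24.5 to 91.5). COX7B led with a signal of 372 at 3L:17425336, ranking 3216 in replicate 2 and 3422 in replicate 3. COX5A followed with 314 at 3R:11819501 (ranks 4295 and 3864). COX8 had 219 at 3L:21539528, with a rank of 7071 in replicate 3 and no replicate 2 summit within 500 bp of its TSS. COX5B had 216 at 2L:6557600 (ranks 5182 and 7638) and COX6B 193 at X:19744344 (ranks 4565 and 9182). Among these 5 genes the replicate ranks were closest for COX7B and COX5A. The summits of COX5A, COX5B and COX7B were nearer to the start sites of glo, IFT52 and Sec3, and with the nearest gene only the count for the complex was 2. COX6B has a start site in common with CG18809, which shares its summit. COX7C (103) and COX7A (92.0) had whole-series summits only, and COX4 had a summit in each replicate list but none in the whole-series list. The COX7C summit lay nearer to the TSS of oys (127 bp) than to that of COX7C (393 bp), and a closer one at −54 bp had 78.6.

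In complex V, the ATP synthase, 7 of 15 genes had an IDR summit (46.7%, 21.3 to 73.4, against 26.9% of all protein-coding genes). All 11 genes that are no like-copies had a whole-series summit (71.5% to 100%, against 49.1%). Membrane and stalk subunits and the catalytic head were all represented. ATPsynE, a small membrane subunit, was the strongest at 442 (3R:14326932, ranks 1963 and 3572). ATPsynCF6, a subunit of the stator that holds the head in place, had 389 at 3R:23356242 (ranks 3419 and 3326). ATPsyngamma, the central stalk, had 240 at 3R:29749002 (ranks 3318 and 7861). These genes were found by both replicates, with ATPsyngamma placed lower in replicate 3.

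ATPsynO, another stator subunit, had a signal of 235 at 3R:15265544 and ranked 4458 in replicate 3, with no replicate 2 summit within 500 bp of the TSS. ATPsynF had 198 at 2R:24599882, with ranks of 5226 and 8060. ATPsynbeta, the catalytic subunit, had 168 at position 1031838 of chromosome 4, with no summit of either replicate within 100 bp of it. Both replicates had other summits within 500 bp of a TSS of ATPsynbeta. In replicate 2 these lay at 1031000 (rank 4493) and 1031619 (rank 6268), and in replicate 3 the stronger lay at 1031955 (rank 4794). ATPsynC, the rotor ring, had 167 at 3R:31219879 and was the member nearest to the lower end of the IDR list, which lay at 150.5. It ranked 5432 in replicate 2 and 11286 in replicate 3. ND-B18, at 147, was the nearest outside it. The whole-series summits of the rest were at ATPsynB (135), ATPsynepsilonL (126), ATPsynG (86.9) and ATPsyndelta (86.8), and ATPsynD was weaker.

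**Figure D2:**
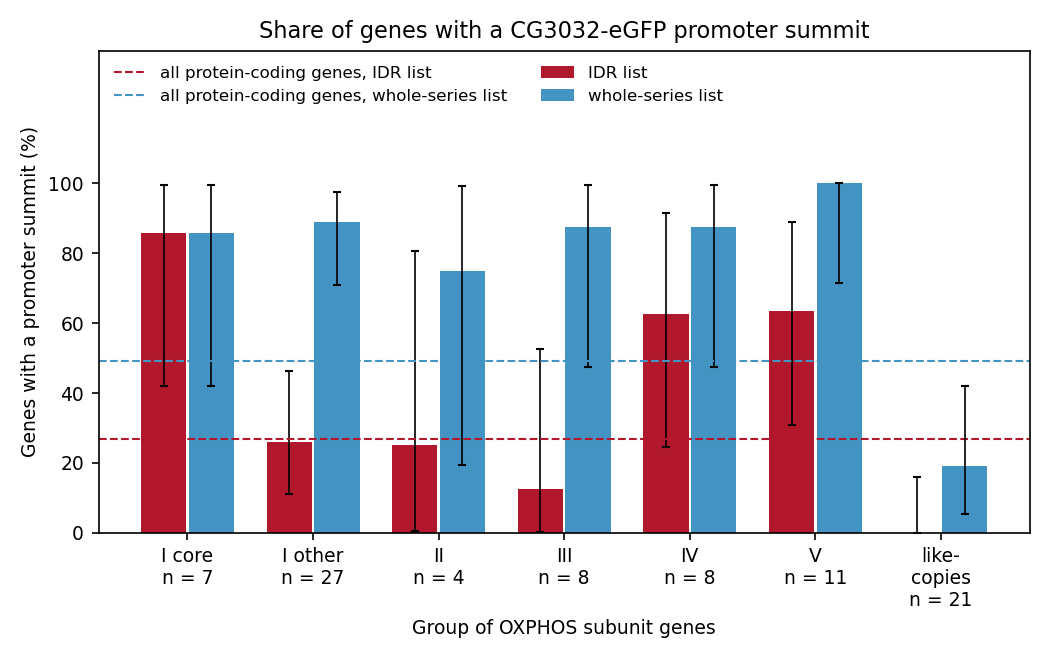
Share of genes with a promoter summit in the IDR list (red) and the whole-series list (blue) for the core and other genes of complex I, complexes II to V without like-copies, and all like-copies, with 95% exact intervals over genes. Dashed lines give the shares of all protein-coding genes (26.9% and 49.1%). The IDR share was 85.7% for the complex I core and 0 for like-copies, and the whole-series share was 75.0% or more in all groups but the like-copies.

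Like-copies hardly carried CG3032-eGFP. None of the 21 had an IDR summit (at most 16.1%, against 26.9% of all protein-coding genes). A whole-series summit was present at 4 (19.0%, 5.45 to 41.9, against 49.1%). The latter were ATPsynepsilonL (126), COX7AL2 (57.3), COX7AL (39.4) and COX5BL (34.4), the last named after its value was seen. No summit of any list lay at the promoters of 14 like-copies, which were ND-24L, ND-49L, ND-51L1, ND-51L2, ND-B14.5AL, UQCR-11L, UQCR-14L, UQCR-6.4L, COX4L, COX6AL, COX7CL, ATPsynCF6L, ATPsynGL and ATPsynbetaL. The other 3, ND-20L, COX6AL2 and COX6CL, had a promoter summit in the replicate 2 list alone. The summit of ATPsynepsilonL was nearer to the TSS of gammaSnap2 than to that of ATPsynepsilonL. COX7AL2 and COX7AL had their summits nearer to CG10874 and DppIII. In the 6 like-copies of complex I and the 3 of complex III no whole-series summit was found. Of their namesakes, ND-24, ND-49, ND-51 and ND-20 had IDR summits, ND-B14.5A, UQCR-14 and UQCR-6.4 had whole-series summits only, and UQCR-11 had neither. COX7AL2 was the one like-copy with a peak among the strongest 8170 of each replicate, in replicate 2 with a signal of 104 (482 bp downstream of a TSS) and in replicate 3 with 113 (483 bp downstream).

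Summits of members lay close upstream of a TSS. Positions are measured from the nearest TSS of the gene, which need not be the outermost. All 27 members with an IDR summit had their nearest one upstream, at a median of −94 bp and between −261 and −9 bp, and 21 (77.8%) lay within 150 bp. Some strongest summits lay inside the member's own gene, upstream of an inner TSS. Those of ND-24, ND-49 and COX5A were in an intron, and those of ND-B22, UQCR-C2, ATPsynbeta and ATPsyngamma in an exon. The summits of ND-ASHI and ND-MWFE, the strongest of all members, lay in introns of the neighbours Fum1 and TppII. Over all protein-coding genes with an IDR promoter summit, 85.5% were upstream, 44.1% lay within 150 bp upstream, and the median was −131 bp. In the whole-series list 53 of 62 members had the nearest summit upstream, at a median of −64 bp, against −72 bp over all genes. Near the limit of the window, the strongest whole-series summit lay 487 bp from the TSS for Cyt-c1 and 482 bp for COX7AL, and just outside it IDR summits lay −577 bp from a TSS of COX7AL2 and −695 bp from that of Cyt-c1. Among members with no whole-series promoter summit, the nearest were those of ND-75 (734 bp) and ND-15 (771 bp).

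**Figure D3:**
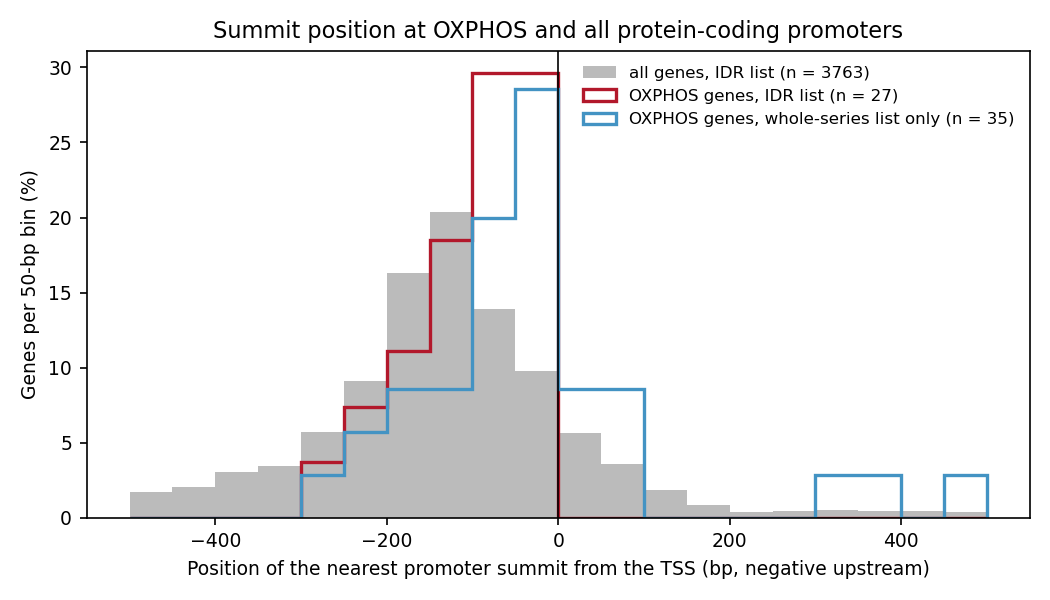
Position of the nearest promoter summit relative to the nearest TSS of the gene, in bins of 50 bp, as a percentage of genes in each group. The 27 members with an IDR summit (red line) lie between −261 and −9 bp, the 35 with a whole-series summit only (blue line) reach both sides of the TSS, and the grey area gives all 3763 genes with an IDR promoter summit.

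Most of the IDR summits of members were shared with a neighbouring gene. Another protein-coding gene had a TSS within 500 bp of the strongest summit in 21 of 27 cases (77.8%), against 56.2% of all genes with an IDR promoter summit. In all 21 a gene on the opposite strand was among them, and in 7 the TSS of the neighbour was nearer. These 7 were ND-30, ND-42, ND-MWFE, COX5A, COX5B, COX7B and ATPsynCF6, whose neighbours were CG15812, Cchl, TppII, glo, IFT52, Sec3 and Sec13. In the whole-series list the TSS of the neighbour was nearer for 18 of 62 members (29.0%), against 22.0% of all genes. A peak list cannot say which of the 2 promoters a shared summit serves. With every summit assigned to no gene but that of the nearest TSS, 20 members had one (23.3%), against 20.2% of all genes.

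Genes with a close neighbour carried IDR summits more often whether or not they were members. Of the 38 members that are no like-copies and have a TSS of another protein-coding gene within 500 bp of their own, 22 had an IDR summit (57.9%), against 48.2% of the 4309 such genes in the genome. Of the 27 without such a neighbour, 5 had one (18.5%), against 17.4% of 9659 genes. Members that are no like-copies had a close neighbour in 58.5% of cases and all protein-coding genes in 30.8%. For whole-series summits the shares were 94.7% and 81.5% of members, against 72.8% and 38.6% of all genes with and without a neighbour.

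Most of these summits were also in the lists of both replicates. A summit within 100 bp was present in both replicate lists for 24 of the 27 strongest member summits (88.9%), against 88.6% of the distinct strongest summits at all promoters. Since the IDR list rests on the replicate lists, such shares are high by construction. The exceptions were COX8 and ATPsynO, which lacked one in replicate 2, and ATPsynbeta, which lacked one in both. Over the 24 summits, the signals of the replicates gave a Spearman's rho of 0.714 (across summits, which share their libraries), against 0.795 over 7431 IDR peaks. In the full lists, 54 members had a promoter summit in replicate 2 (62.8%, against 48.5% of all genes) and 65 in replicate 3 (75.6%, against 50.2%). Among the strongest 8170 peaks of each, 29 members had one in replicate 2 (33.7%, against 27.7%) and 28 in replicate 3 (32.6%, against 26.6%). Of these, 23 were found in both.

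**Figure D4:**
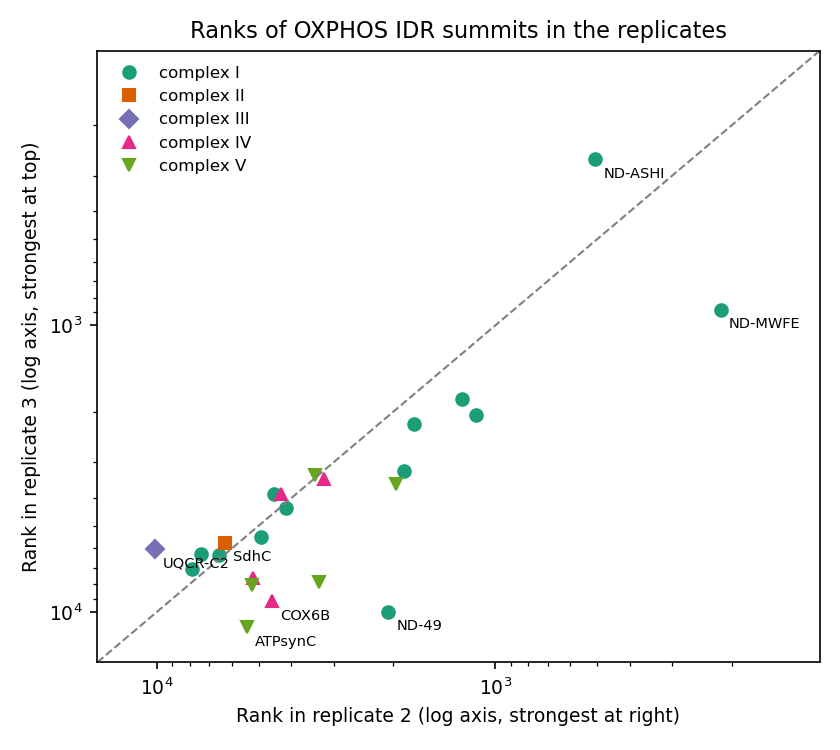
Rank of the strongest IDR summit of each member in replicate 2 (horizontal, log axis, strongest at right) and replicate 3 (vertical, log axis, strongest at top), coloured by complex. The 24 shown had a summit within 100 bp in both replicate lists. The dashed line marks equal ranks. ND-49 lies farthest below it, with rank 2076 in replicate 2 and 9965 in replicate 3.

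Of the known motifs searched, the NRG element lay at the most IDR summits of members. The NRG element was searched on both strands as TTACATAA, TTACGTAA, TTATATAA or TTATGTAA, words that can overlap a TATA box, while each other motif was a single word. It lay within 100 bp of 5 of the 27 summits (18.5%), those of ND-42, ND-MNLL, ND-SGDH, ND-49 and ATPsyngamma, against 5.49% of summits at all promoters. From the middle of the word, its distance to the summit was 3 bp in ND-42, 2 bp in ND-MNLL and 17 bp in ND-SGDH. In the sequences above, the summit base thus lies inside the word in ND-42 and ND-MNLL. The distance was 65 bp in ND-49 and 68 bp in ATPsyngamma. Windows 500 bp away from these 27 summits held it in 6 of 54 cases (11.1%), and those of all promoters in 2.56%. In promoters from 250 bp upstream to 50 bp downstream of the outermost TSS, 5 of the 27 members with an IDR summit had the element and 0 of the 59 others, against 5.18% of all protein-coding genes. Within 100 bp of the 35 summits in the whole-series list only, however, it lay at 2, those of ND-B14.7 and Cyt-c1 (5.71%, against 3.10% at all promoters).

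The DRE and Motif 1 lay at fewer of the IDR summits than of the weaker ones, a difference that was not tested. The DRE (TATCGATA), which DREF and BEAF-32 bind, lay within 100 bp of 0 of 27 IDR summits and of 5 of 35 summits in the whole-series list only (14.3%), against 7.23% and 8.63% at all promoters. The 5 were at ND-B14.5A, ND-B14.5B, ND-B15, UQCR-14 and COX7A. Motif 1 (GGTCACACT), the site of M1BP, lay at 1 IDR summit, that of ATPsynC, and at 5 weak ones (14.3%), against 3.52% and 5.83%. The promoter windows did not show the same split for Motif 1, which was in 5 of the 27 members with an IDR summit (18.5%) and 11 of the 59 others (18.6%), against 6.04% of all protein-coding genes. The DRE was there in 2 of the 27 (7.41%) and 7 of the 59 (11.9%), against 9.36%. GAGAG, the core of GAGA factor sites, lay at 3 IDR summits (11.1%, against 18.6%), and the E-box CACGTG at none (against 1.89%). Of all words of 8 bases, AAAAATAT had the largest excess over flanking windows at the IDR summits outside member promoters. It lay at 8 member summits (29.6%, against 14.8%) and in 0 of their 54 flanking windows. Within 50 bp it lay at 5 (18.5%, against 7.97%). The words next in excess were ATTTAAAA, at 3 member summits (11.1%, against 14.1%) and 3 flanking windows, and TTTAAAAA, at 6 (22.2%, against 13.6%) and 3 flanking windows.

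Other genes of energy metabolism gave a wider range of signal than the subunit genes. Subunits with names of their own, with cytochrome c, had IDR summits at 4 of 10 genes (40.0%, 12.2 to 73.8), where all protein-coding genes had 26.9%. These were Cyt-c-d (1348), blw, the alpha subunit of ATP synthase (572), levy and cype, subunits of complex IV (407 and 362). Of the assembly factors, for which 19 of 34 symbols found no match in the annotation, 4 of 15 had them (26.7%, close to the 26.9% of all genes), namely Ttc19 (712), Cox17, a copper chaperone (694), Coa8 (292) and Cox10 (173). Of the citric acid cycle and pyruvate dehydrogenase genes 8 of 15 had one (53.3%, 26.6 to 78.7, against 26.9%). They were led by the isocitrate dehydrogenase subunit gene Idh3g (1829), Fum1 (1623, the summit shared with ND-ASHI), Pdhb (603) and mAcon1 (456). Nuclear regulators had an IDR summit at 2 of 9 genes (22.2%, against 26.9%), ERR (1018) and cnc (583), and a whole-series summit at all 9, against 49.1% of all genes. Besides Fum1, the summits of Cyt-c-d, levy, cype, Ttc19, Cox10, Idh3g, Pdhb, mAcon1 and ERR were shared with a neighbouring gene. Those of blw, Cox17, Coa8 and cnc were not. The summit of Cyt-c-d lay 381 bp downstream of its TSS.

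Glycolysis genes carried the strongest peaks of these lists. An IDR summit was present at 7 of 13 (53.8%, 25.1 to 80.8). The share of all protein-coding genes, 26.9%, lies within that interval. Their median signal was 1438, against 241 in the members. A whole-series summit was present at 10 (76.9%, against 49.1%), and Hex-C, Tpi and Gapdh1 had none. Gapdh2 (3614, rank 38), Hex-A (2520, rank 103), Eno (1768) and Ldh (1438) led. Gapdh2 ranked 103 in replicate 2 and 24 in replicate 3, and Hex-A 91 and 118, so both stood above every member in both replicates, where the best ranks were 216 (ND-MWFE, replicate 2) and 263 (ND-ASHI, replicate 3). The difference between the lists was not tested.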

How the data were processed

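The authors deposited 4 narrowPeak lists on dm6. The signal value of each peak and its summit offset are the authors' own, deposited with no statement of its scale. Per the file headers, a control alignment was used in calling peaks on each replicate and, for the whole-series list, on both, and the IDR list was derived from these 3. The control was not analysed here. Aligner, caller and IDR threshold: not given in the sources used here. No read counts are given, so depth is unknown, and intervals cover counting error over genes only.

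Genes and TSSs came from Ensembl release 115 (BDGP6.54), sequence from the RefSeq copy of the same assembly. Of a gene's promoter summits the strongest was used, and for positions the nearest. With 1 group, no test was run: shares are set beside those of all protein-coding genes, with Clopper-Pearson intervals (scipy 1.17.1). Promoter assignment was tested on simulated data. Values are given for all members with an IDR summit, up to 4 weaker ones per complex and, for the other pathways, the 4 strongest. Other members are listed by symbol, and values for a few more were added after they were seen. Pathway symbols without a match (1 of 11, 19 of 34 and 2 of 17 in the first 3 lists) were left out. Members, lists and motifs were chosen with earlier results of these data known.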

Additional observations from a re-analysis of the deposited data

How the results depend on the processing

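The count of 27 members with an IDR promoter summit was 24 with a TSS window of 200 bp and 31 with 1000 bp, where ND-75, ND-15, Cyt-c1 and COX7AL2 were added. Among the stronger 4085 IDR peaks 12 members had one (14.0%, against 14.8% of all protein-coding genes), with 8 in complex I, 0 in complex II, 0 in complex III, 2 in complex IV and 2 in complex V. Fewer peaks were used there. With the nearest gene only, complex IV had 2 genes with an IDR summit and 5 with a whole-series summit, where shared summits go to the neighbour. With a window of 1000 bp complex III had 2. Leaving out a replicate gave 28 to 29 members in all (32.6% to 33.7%, against 26.6% to 27.7% of all protein-coding genes). These counts used the strongest 8170 peaks of the replicate kept. Complex I had 13 to 15 of them, complex II 1 to 2, complex III 1, complex IV 5 and complex V 7. For the whole-series count of 62, the full list of the replicate kept gave 54 to 65 members (62.8% to 75.6%, against 48.5% to 50.2%). Of these, 23 to 33 were in complex I, 3 in complex II, 7 in complex III, 10 in complex IV and 11 to 12 in complex V. For the IDR list, the median position of −94 bp became −82 bp without replicate 2 and −93 bp without replicate 3. Within 50 bp of the summit, the NRG element lay at 3 of the 27 IDR summits (11.1%, against 3.34% at all promoters). Motif 1 lay at 0 of them (against 1.34%). At the 62 whole-series summits of members, the DRE went from 5 within 100 bp to 3 within 50 bp and Motif 1 from 6 to 1. The share over all whole-series promoter summits was not computed. The other counts of members per list and complex, of matched summits and of GAGAG and DRE at IDR summits stayed within 1.5 times their value. No paired analysis was possible because there is 1 group. Weak summits rest on unknown depth, and small complexes leave wide intervals.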

Other observations

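Several members shared a summit with another gene of mitochondrial function, a set picked after the values were seen. ND-ASHI shared the strongest member summit with Fum1 of the citric acid cycle, and ND-42 shared its own with Cchl, which attaches heme to cytochrome c. Among weaker summits, that of ATPsynD (66.2) lay 31 bp from the TSS of the mitochondrial ribosomal protein gene mRpL55 and 64 bp from that of ATPsynD. That of ND-B16.6 (57.3) lay 58 bp from its own TSS and 286 bp from that of kdn, the citrate synthase gene. How often other gene groups pair in this way was not tested.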
